A study of Mus musculus with 12 samples.

Results

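Genes with which fat cells make, coat, fill and empty their lipid droplets were followed in cultured cells of mouse white fat. The 48 genes were chosen by symbol, as known genes of adipocyte hormones, fatty acid uptake, fatty acid and triglyceride synthesis, droplet coat and triglyceride breakdown, and not by a threshold on a measured value. Of the 48, 44 were among the 19262 genes listed for the knockout comparison and 42 among the 16785 listed for the transgene comparison. A table lists a gene only where all 6 of its libraries are above 0. Lep, the gene of the satiety hormone leptin, Cidea, a droplet fusion protein, Pck1, which supplies glycerol 3-phosphate, and Thrsp, a lipogenic regulator, were in neither list. Retn, the gene of resistin, and Cidec, a protein of droplet fusion, were absent from the transgene list only.

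The cells were primary stromal vascular fraction, the non-adipocyte part of white adipose tissue that holds fat cell progenitors, and messenger RNA was sequenced in 12 libraries, 3 in each of 4 groups. WT cells came from wild-type C57BL/6 mice and TKO cells from mice of the same strain that were miR-26a-1-/- and miR-26a-2-/- as well as miR-26b-/-, and so lacked all 3 miR-26 genes, and both were cultured to confluency. CTL and Dox cells both carried M2rtTA and eGFP.miR-26a, a doxycycline-inducible miR-26a transgene, in C57BL/6 mice, and were grown to confluency over 4 days, CTL untreated and Dox with doxycycline at 1 mg/ml as the labels give it. All mice were 6 weeks old. No group received doxycycline without the transgenes, so an effect of the drug and an effect of miR-26a cannot be told apart. The promoter that drives M2rtTA is not given in the labels, and neither is the state of differentiation: no adipogenic cocktail is named in the culture protocol. The labels do not say whether replicates are separate animals or cultures, and p-values therefore measure only the spread between these samples.

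Triglyceride is built in the endoplasmic reticulum by stepwise addition of activated fatty acids to glycerol 3-phosphate. Glycerol phosphate and lysophosphatidate acyltransferases (Gpam, Agpat) act first, lipins (Lpin) remove the phosphate, and the diacylglycerol acyltransferases Dgat1 and Dgat2 add the last acyl chain. The product buds into droplets, which perilipins (Plin) coat and from which the lipases Pnpla2, Lipe and Mgll release fatty acids in turn. Progenitors carry the general part of this machinery, whereas Adipoq, Plin1, Cfd and Cidec are hallmarks of the differentiated fat cell.

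The miR-26 family shares 1 seed, the bases with which a microRNA recognises its targets. Both mature sequences lost in TKO are shown 5′ to 3′, from RefSeq (GRCm38.p6), with bases 2 to 8 in capitals, because target sites among the lipid genes are defined by them. miR-26a-5p is encoded at 2 places, chr9:119031811-119031832 and chr10:126995543-126995564, and miR-26b-5p at chr1:74394324-74394344, all on the plus strand.
miR-26a-5p: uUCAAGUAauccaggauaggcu
miR-26b-5p: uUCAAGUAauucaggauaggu

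An 8-base match to this seed (TACTTGAA, on the transcript strand) was present in the annotated 3′ UTR of 4 of the 44 listed genes. The genes in neither list (Lep, Cidea, Pck1 and Thrsp) were not searched. The 4 sites are shown in DNA letters on the transcript strand, in GRCm38 coordinates with the match in capitals, because each lies in a gene whose values are given below.
Acsl3, chr1:78706465-78706472, plus strand, last exon (16): aaataggaaaaTACTTGAAatgtatgtctc
Lpin1, chr12:16535859-16535866, minus strand, last exon (21): acttagttattTACTTGAAgggggaaaaaa
Lpin3, chr2:160905599-160905606, plus strand, last exon (20): tcaaggccattTACTTGAAgaactggaaca
Abhd5, chr9:122380629-122380636, plus strand, last exon (7): aaccacttataTACTTGAAgtaaaattatg
Acsl3 holds a further 7-base match (ACTTGAA), and 7-base matches alone (TACTTGA or ACTTGAA) were present in Scd2, Elovl6, Acsl4, Gpam, Agpat3 and Lpin2. Among the 40 genes of the set tested in TKO against WT, 4 (10%) held the 8-base match, beside 5.09% of the 11834 tested genes with an annotated 3′ UTR, and 10 (25%) held a match of either length, beside 21.8%. The median 3′ UTR was 1493 bases in the set and 1199 over all tested genes. The 4 genes with the 8-base match did not move alike: Acsl3 and Lpin1 were lower in TKO, Lpin3 was higher, and Abhd5 did not pass the test.

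Values are the deposited signal, read counts scaled per library, whose step size gave back whole reads. Recovered depth ran from 54978109 to 83461531 reads in the WT and TKO libraries and from 19301969 to 25785439 in CTL and Dox. Differences were tested with limma on log2(signal + 1), after removal of genes that reached a signal of 1 in fewer than 3 libraries of a comparison. This left 12649 and 12634 genes, over which p-values were adjusted by Benjamini and Hochberg's method. All differences below are on this log2 scale with their standard errors, and they understate the change of genes at a low signal. Signals of 14 progenitor and fibroblast markers in WT ran from 3.48 to 4.65 for Pi16 up to 9093.71 to 10586.54 for Col1a1. Among them Pdgfra read 721.91 to 836.37 in WT and 560.24 to 843.46 in TKO. Pdgfrb read 1180.58 to 1251.08 in WT and 776.14 to 1035.53 in TKO, where it was lower (-0.47, adjusted p = 0.017). Dpp4 read 6.54 to 9.32 and Cd34 17.28 to 28.61 in WT. The share of progenitors among the cells was not measured. Adipocyte hallmarks were near the lower end in WT, where Adipoq read 1.18 to 2.80. Of 6 brown fat cell markers Ucp1 and Cidea were not listed, Cox7a1 was below the level for testing, Dio2 did not pass, and Ppargc1a (-0.68, adjusted p = 0.011) and Prdm16 (-0.44, adjusted p = 0.033) were lower in TKO.

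In wild-type cells the general lipid-making genes were abundant and the hallmarks of fat cells scarce. Scd2, a desaturase, was highest at 301.13 ± 18.9 signal per kilobase of transcript (SD, n = 3). The desaturase Scd1 followed at 165 ± 4.29 and the citrate-cleaving Acly at 113.22 ± 2.66 per kilobase. The caveolar protein Cav1, the elongase Elovl5 and the droplet coat protein Plin2 came next, at 93.58, 72.51 and 47.79 per kilobase. At the other end of the WT order stood Plin1 (0.647 ± 0.197), the glycerol 3-phosphate dehydrogenase Gpd1 (0.365 ± 0.124), the fat cell glucose transporter Slc2a4 (0.195 ± 0.0511), the glycerol channel Aqp7 (0.106 ± 0.0261), Cidec (0.0748 ± 0.0145) and Retn (0.0208 ± 0.00939 per kilobase). The same 3 genes, Scd2, Scd1 and Acly, led the order per kilobase in TKO, CTL and Dox, where Acly stood above Scd1 in both transgene groups. In TKO the fatty acid carrier Fabp4 stood at place 5 with 71.19 ± 35.5 per kilobase, against 28.67 ± 0.304 in WT.

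**Figure D1:**
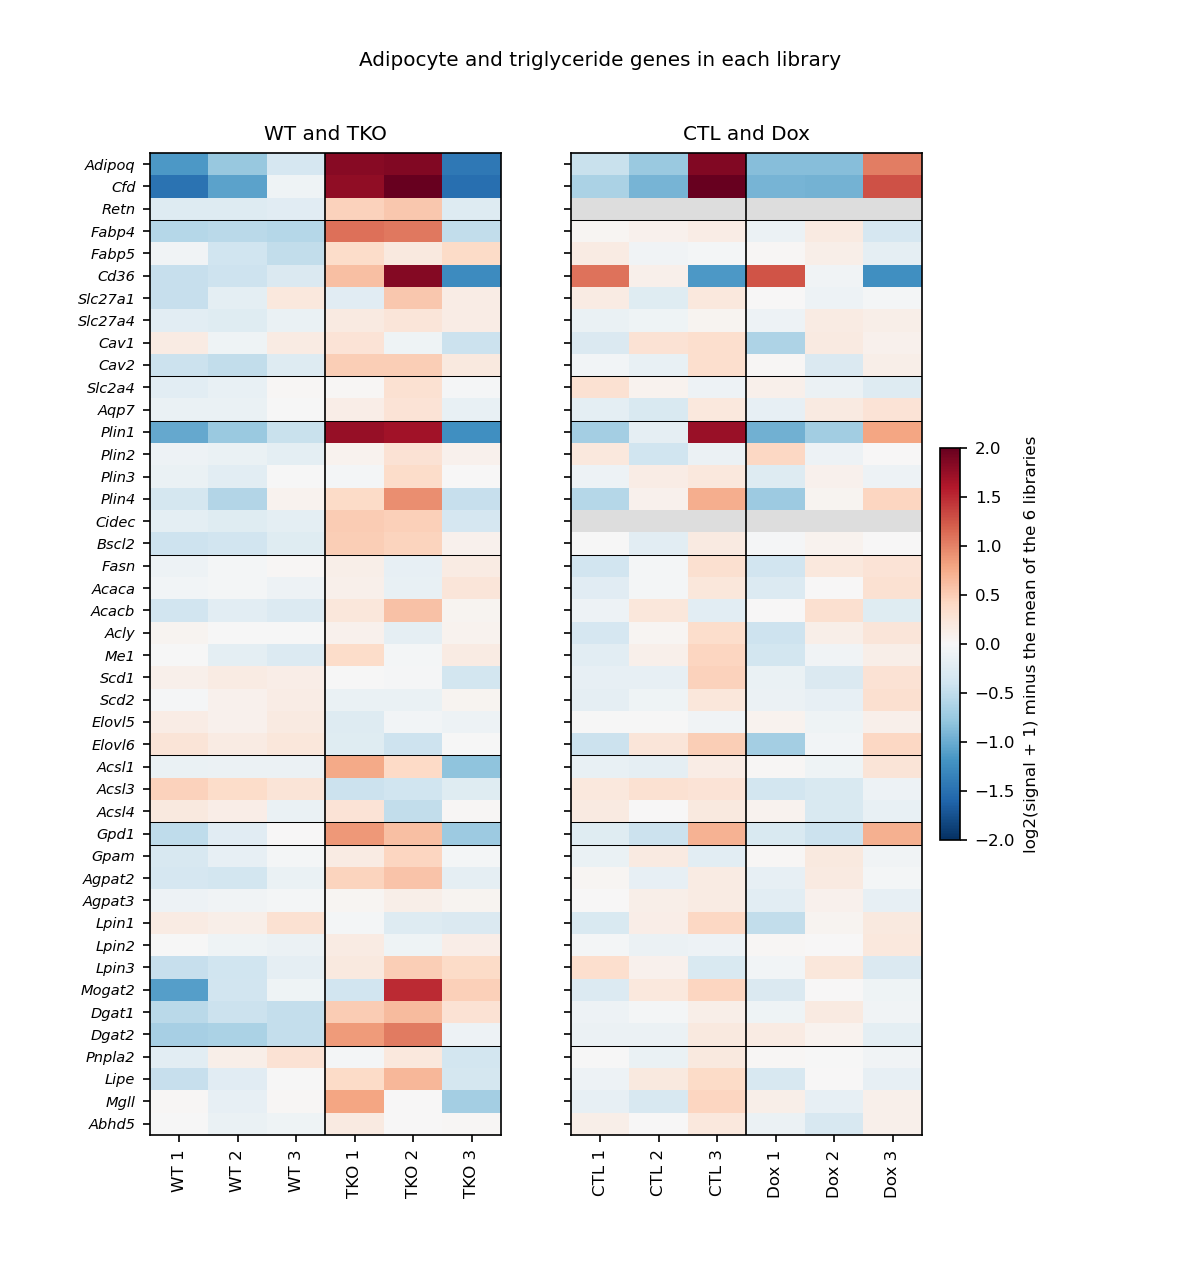
Signal of the 44 listed genes in each library, as log2(signal + 1) minus the mean of the 6 libraries of its comparison. Rows are genes grouped by role between the thin lines, columns are libraries, red is above and blue below the mean, and grey marks genes not listed; the colour of Adipoq, Cfd and Plin1 is deep red in TKO 1, TKO 2 and CTL 3.

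Among the lipid genes the TKO libraries were higher in some and lower in others, and a smaller share passed than among all genes. Of the 40 genes tested, 9 were higher in TKO, 4 were lower and 27 did not pass. Over all tested genes 45.8% passed, 23.2% higher and 22.7% lower, so that the higher genes of the set were near the background and the lower ones below it. The median difference was 0.31 in the set and 0.00 over all genes, and 30 of the 40 differences were above 0, beside 49.9% of all genes. Rises were found in uptake (Cav2, Fabp5, Slc27a4), droplet coat and assembly (Bscl2, Plin2), the last steps of triglyceride synthesis (Dgat1, Dgat2, Lpin3) and in Acacb, and falls in acyl chain elongation and activation (Elovl5, Elovl6, Acsl3) and in Lpin1. The 3 TKO libraries did not overlap the 3 WT libraries in 18 genes, 13 above (29.4% of all genes) and 5 below (29.4%), where 58.8% of all genes did not overlap. Without TKO replicate 3 the counts were 20 higher and 4 lower (22.3% and 22.1% of all genes). With library-size scaling, which shifted the median over all genes by 0.11, 16 were higher (30.2% of all genes) and 3 lower. DESeq2 called 16 higher (25.4% of all genes), and 14 were higher after removal of the trend with transcript length and GC content (22.4%). That removal added Abhd5, Acaca, Agpat3, Gpam, Lpin2 and Me1 and lost Plin2.

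**Figure D2:**
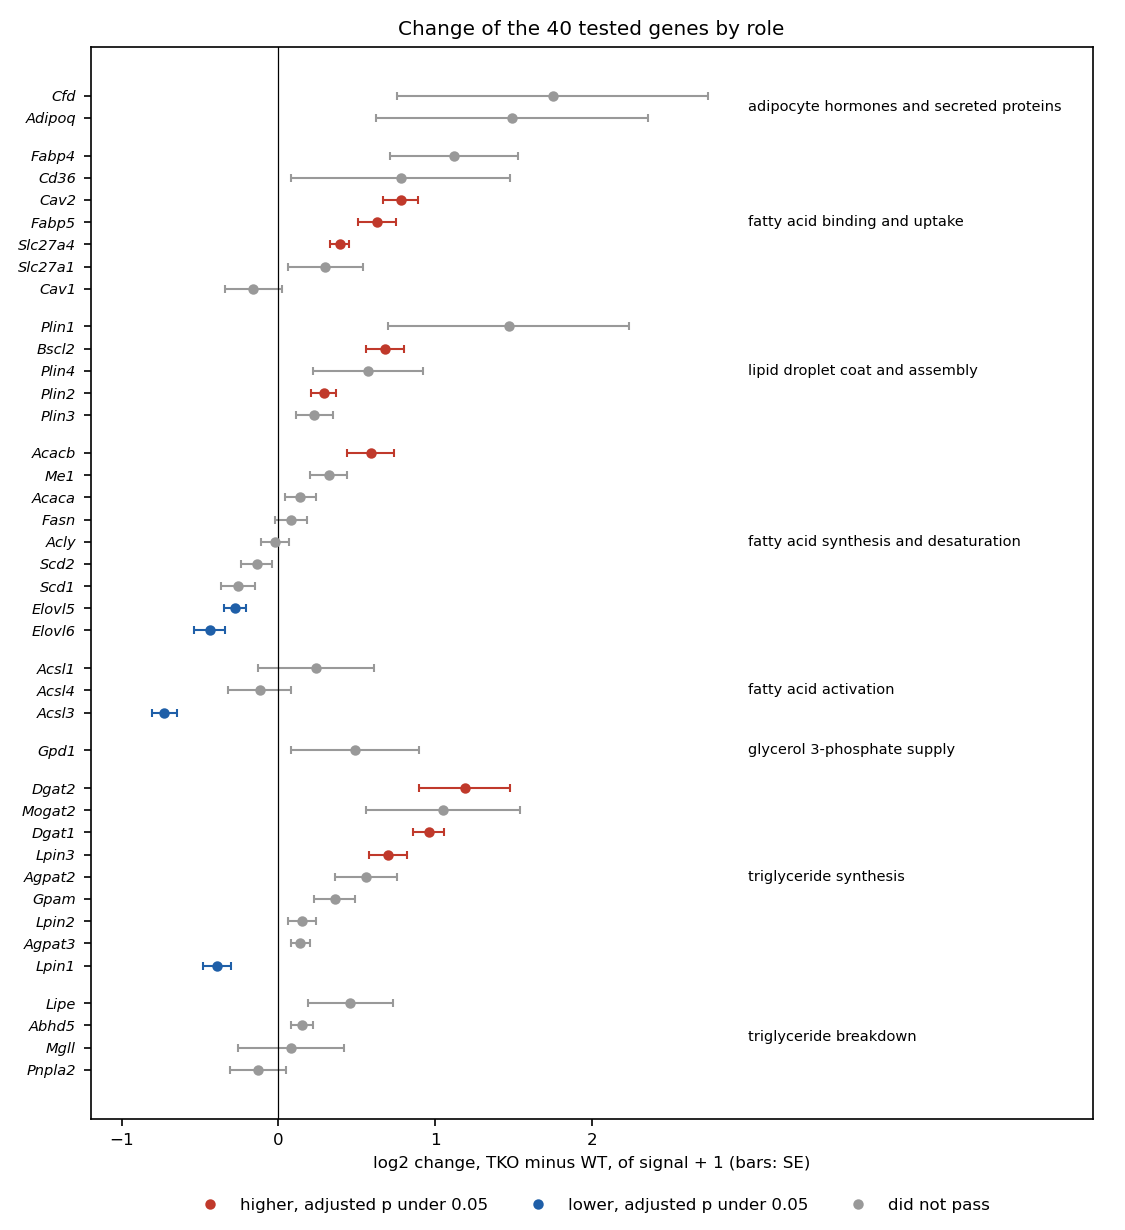
Difference of TKO minus WT in log2(signal + 1) for the 40 genes tested, by role, with bars of 1 SE. Red points passed as higher, blue as lower and grey did not pass; the widest bars belong to Cfd, Adipoq, Plin1 and Cd36, and the 3 largest differences did not pass while Dgat1 at 0.96 ± 0.10 did.

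The fat cell hormones and secreted proteins divided the TKO libraries. Adipoq, the gene of the hormone adiponectin (chr16:23146536-23158028), read 1.18, 1.85 and 2.80 in WT against 15.97, 16.26 and 0.787 in TKO. Cfd, the complement protease adipsin, read 0.424, 0.883 and 2.74 in WT against 12.59, 19.34 and 0.388 in TKO. In both genes TKO 1 and TKO 2 lay above every WT library and TKO 3 below every one. The groups therefore overlapped, and neither Adipoq (1.49 ± 0.87, adjusted p = 0.20) nor Cfd (1.75 ± 0.99, adjusted p = 0.19) passed. DESeq2, which adds no pseudocount to the reads, called Adipoq as higher (adjusted p = 0.045) with all 6 libraries. Retn was untested at this level, with 1, 1 and 2 reads in WT against 53, 61 and 1 in TKO. Counts of 1 or 2 reads leave its ratio within wide counting error, but the order of the TKO libraries was that of Adipoq and Cfd.

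Droplet proteins showed the same division in those members that mark mature fat cells. Plin1, the perilipin that gates lipolysis (chr7:79720218-79732903), read 1.29, 1.78 and 2.40 in WT against 14.51, 13.90 and 0.986 in TKO, a difference of 1.47 ± 0.77 that did not pass (adjusted p = 0.16) but was called by DESeq2 (2.43, adjusted p = 0.031). Plin4, a perilipin of small droplets, read 11.47, 9.55 and 15.67 in WT against 19.69, 29.00 and 10.54 in TKO (0.57 ± 0.35, adjusted p = 0.23). Cidec, untested, had 8, 6 and 8 reads in WT against 67, 65 and 3 in TKO. TKO 3 was again the lowest of the TKO libraries in each of these genes.

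Of the droplet genes used by cells of many kinds, Bscl2 and Plin2 had all TKO libraries above all WT libraries. Bscl2, the gene of seipin, which organises droplet budding, read 27.06, 27.76 and 30.73 in WT against 51.63, 50.09 and 38.56 in TKO and rose by 0.68 ± 0.12 (adjusted p = 0.0048). Of its 50-base stretches 9.9% also occur in an annotated readthrough transcript. Plin2, a coat protein of droplets in most cells, read 92.65, 90.81 and 87.25 in WT against 104.98, 121.67 and 105.64 in TKO, a rise of 0.29 ± 0.08 (adjusted p = 0.020). The call of Plin2 was lost without WT replicate 1, 2 or 3 (adjusted p 0.051, 0.069 and 0.071) and after removal of the trend with transcript length and GC content (adjusted p = 0.11). Plin3, the other general perilipin, read 60.46, 57.31 and 66.49 in WT against 65.03, 86.01 and 67.20 in TKO, with overlap, and did not pass (0.23 ± 0.12, adjusted p = 0.16).

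In fatty acid binding and uptake 3 of 7 genes rose and none fell, where 23.2% of all tested genes rose and 22.7% fell, a list too short to read against those shares. Cav2, the partner of Cav1 in caveolae, read 16.96, 16.23 and 19.22 in WT against 32.76, 32.81 and 26.59 in TKO, a rise of 0.78 ± 0.11 (adjusted p = 0.0020). Fabp5, a fatty acid binding protein, read 39.20, 31.11 and 29.06 in WT against 53.37, 47.25 and 54.21 in TKO (0.63 ± 0.12, adjusted p = 0.0063), though 21.1% of its 50-base stretches recur in near-identical copies such as Gm6166. Slc27a4, a fatty acid transport protein, read 31.40, 30.53 and 33.20 in WT against 41.37, 43.17 and 40.64 in TKO (0.39 ± 0.06, adjusted p = 0.0035). The 3 TKO values lay above the 3 WT values in each of the 3 genes. Cav1, which overlaps the same antisense gene as Cav2 (Gm15581), differed by -0.16 ± 0.18 and did not pass, with TKO libraries from 179.99 to 293.64.

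Fabp4 and Cd36, the uptake genes most linked to fat cells, did not pass. Fabp4, the fat cell fatty acid carrier (chr3:10204088-10208576), read 25.49, 26 and 25.57 in WT against 83.54, 80.72 and 27.09 in TKO, so that all TKO libraries were above WT but TKO 3 only slightly. Its difference was 1.12 ± 0.41 (adjusted p = 0.063), called by edgeR (adjusted p = 0.033), by DESeq2 (0.00084) and with library-size scaling (0.043). Cd36, a fatty acid receptor also carried by macrophages and endothelial cells, read 4.98, 5.18 and 5.76 in WT against 11.52, 28.36 and 2.46 in TKO (0.78 ± 0.70, adjusted p = 0.39). TKO 2 was the highest library for Cd36, and TKO 3 was below WT. Slc27a1, the insulin-responsive transport protein, differed by 0.30 ± 0.24 (adjusted p = 0.33).

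**Figure D3:**
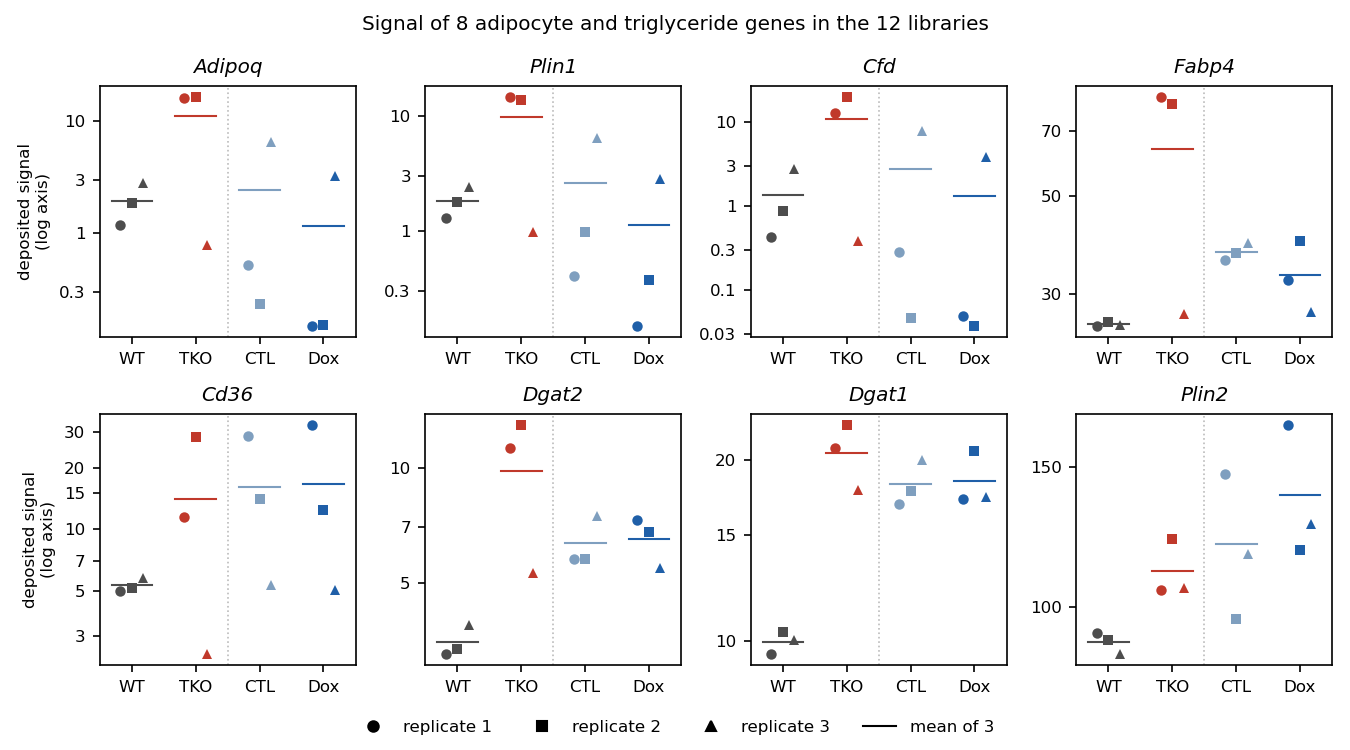
Deposited signal of 8 genes on log axes in WT, TKO, CTL and Dox, 1 point per library, with the shape giving the replicate number and the line the mean of 3. TKO 3 lies below the WT points in Adipoq, Plin1, Cfd and Cd36 and above them in Dgat1, Dgat2 and Plin2, and replicate 3 is the highest in both CTL and Dox for Adipoq, Plin1 and Cfd. Values left and right of the dotted line were normalized apart.

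Both enzymes of the last step of triglyceride synthesis rose. Dgat1 (chr15:76502015-76511953) read 9.53, 10.35 and 10.03 in WT against 20.89, 22.82 and 17.79 in TKO, a rise of 0.96 ± 0.10 (adjusted p = 0.00081) kept under every alternative tried, at 0.70 to 1.08. Dgat2 (chr7:99153658-99182719), the other enzyme of the last step, read 3.28, 3.38 and 3.89 in WT against 11.29, 12.95 and 5.32 in TKO, a rise of 1.19 ± 0.29 (adjusted p = 0.015). In both genes TKO 3 was the lowest of the TKO libraries while still above every WT library. The call of Dgat2 was lost without WT replicate 1 or WT replicate 2 (adjusted p 0.056 and 0.055).

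The lipins moved apart. Lpin3 read 6.62, 6.92 and 8.21 in WT against 10.97, 13.68 and 12.60 in TKO, a rise of 0.70 ± 0.12 (adjusted p = 0.0035). Lpin1, the main lipin of fat tissue, read 53.11, 51.64 and 58.83 in WT against 46.04, 39.69 and 38.85 in TKO and fell by 0.39 ± 0.09 on the log2 scale (adjusted p = 0.013). Lpin2 differed by 0.15 ± 0.09 (adjusted p = 0.20). The groups of Lpin1 and of Lpin3 did not overlap, and both genes hold the 8-base seed match shown above.

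The acyltransferases of the earlier steps did not pass. Gpam differed by 0.36 ± 0.13 (adjusted p = 0.063), Agpat2 by 0.56 ± 0.20 (0.055) and Agpat3 by 0.14 ± 0.06 (0.084). Mogat2, which makes diacylglycerol from monoacylglycerol, read 0.988, 2.28 and 3.00 in WT against 2.26, 10.96 and 4.94 in TKO (1.05 ± 0.49, adjusted p = 0.12), with TKO 2 the high library. Agpat2 was called as higher by edgeR (adjusted p = 0.041), by DESeq2 (0.012), with library-size scaling (0.031) and with library weights (0.040), and Mogat2 by DESeq2 (0.022). Agpat2 lies opposite Egfl7 and Mogat2 opposite Gm45012, and reads of such pairs are separated only by strand, whose use in the counting is not given in the sources used here. Gpd1, which supplies glycerol 3-phosphate, read 0.688, 1.05 and 1.4 in WT against 3.36, 2.65 and 0.443 in TKO, again with TKO 3 below WT (0.49 ± 0.41, adjusted p = 0.36).

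Activation of fatty acids held the fall with the smallest adjusted p in the set. Acsl3, an acyl-CoA synthetase of the endoplasmic reticulum and of newly formed droplets (chr1:78657825-78707743), read 121.80, 113.90 and 105.43 in WT against 64.98, 66.22 and 73.92 in TKO. Every TKO library was below every WT library, a fall of 0.73 ± 0.08 on the log2 scale (adjusted p = 0.00096) that kept its call under every alternative tried, at -0.78 to -0.57. Of the 50-base stretches of Acsl3, 4.1% also occur in Utp14b, a gene that overlaps it on the same strand. Acsl1, the main synthetase of fat cells, read 21.04, 21.31 and 21.18 in WT against 39.84, 30.80 and 12.74 in TKO (0.24 ± 0.37, adjusted p = 0.63). Acsl4, which favours arachidonate, differed by -0.12 ± 0.20 (adjusted p = 0.64). The WT libraries of Acsl1 were nearly equal, and TKO libraries lay on both sides of them.

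The 9 tested genes of fatty acid synthesis had a median difference of -0.02, with 1 rise and 2 falls beside the same background of 23.2% and 22.7%. Elovl6, which elongates saturated acyl chains, read 143.52, 133.77 and 140.16 in WT against 101.28, 89.85 and 118.26 in TKO and fell by 0.44 ± 0.10 on the log2 scale (adjusted p = 0.014). Elovl5, which elongates polyunsaturated chains, read 203.98, 194.58 and 206.59 in WT against 153.61, 175.66 and 169.60 in TKO and fell by 0.28 ± 0.07 (adjusted p = 0.018). The groups of both elongases did not overlap. Their calls were lost without WT replicate 1 (Elovl6, adjusted p = 0.055), without WT replicate 1 or 3 (Elovl5, both adjusted p 0.065) and for Elovl5 with library-size scaling (adjusted p = 0.19).

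Acacb, the acetyl-CoA carboxylase of the mitochondrial surface, read 1.89, 2.25 and 2.12 in WT against 3.43, 4.70 and 2.94 in TKO, a rise of 0.59 ± 0.15 (adjusted p = 0.021) lost without WT replicate 1, 2 or 3 (0.074, 0.055 and 0.055). Me1, the malic enzyme that makes NADPH, read 93.15, 82.36 and 77.66 in WT against 121.33, 91.33 and 105.56 in TKO and did not pass (0.32 ± 0.12, adjusted p = 0.066). Me1 shares 26.5% of its 50-base stretches with near-identical copies such as Gm7049. The core enzymes did not pass: Fasn, the fatty acid synthase, differed by 0.08 ± 0.10, Acly by -0.02 ± 0.09, and Acaca, of which 52.6% of stretches recur in Gm5182, by 0.14 ± 0.10. Acaca passed as higher after removal of the length and GC trend (0.36 ± 0.05, adjusted p = 0.0025). The desaturases Scd1 (-0.26 ± 0.11, adjusted p = 0.087) and Scd2 (-0.14 ± 0.10, adjusted p = 0.26) did not pass.

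None of the 4 tested genes of triglyceride breakdown passed. Lipe, the hormone-sensitive lipase, read 5.33, 6.47 and 7.66 in WT against 10.36, 12.75 and 5.81 in TKO (0.46 ± 0.27, adjusted p = 0.20). Mgll, the monoglyceride lipase, read 9.78, 8.53 and 9.88 in WT against 17.38, 9.74 and 5.64 in TKO (0.08 ± 0.34, adjusted p = 0.87). In both genes TKO 3 was the lowest TKO library, and for Mgll the TKO range enclosed the WT range. Abhd5, the activator of the first lipase and a gene with the 8-base seed match, read 55.48, 50.76 and 52.83 in WT against 63.66, 56.46 and 56.69 in TKO (0.15 ± 0.07, adjusted p = 0.14). The lipase itself, Pnpla2, differed by -0.13 ± 0.18 (adjusted p = 0.59). The glucose transporter Slc2a4 read 0.388 to 0.636 in WT and 0.576 to 0.985 in TKO, the glycerol channel Aqp7 0.229 to 0.345 and 0.211 to 0.631, and both were below the level for testing.

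The spread among TKO libraries ran through much of the set. The highest and lowest TKO library were at least 1 apart on the log2 scale in 12 of the 40 tested genes, beside 6.04% of all tested genes. These were Cfd, Adipoq, Cd36, Plin1, Mogat2, Gpd1, Fabp4, Acsl1, Mgll, Plin4, Dgat2 and Lipe. In WT only Cfd and Mogat2 were that far apart, beside 1.34% of all genes. Ranked by range within TKO among 12649 genes, Cfd was at place 4, Adipoq at 11, Cd36 at 17 and Plin1 at 21.

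TKO 3 was the lowest TKO library in 22 of the 40 genes, against 29.1% of all tested genes, while TKO 1 was lowest in 8 (33.6% of all) and TKO 2 in 10 (37.3%). Leaving TKO 3 out added 11 genes to the higher ones: Acsl1, Adipoq, Agpat2, Cd36, Cfd, Fabp4, Gpam, Gpd1, Lipe, Plin1 and Plin4. Without it Adipoq differed by 2.58 ± 0.24 (adjusted p = 0.0018), Plin1 by 2.45 ± 0.18 (0.0015), Fabp4 by 1.64 ± 0.06 (0.0011) and Cfd by 2.95 ± 0.44 (0.0051). These values describe TKO 1 and TKO 2 against WT. The library was singled out by its values, so they are no test of the genotype.

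**Figure D4:**
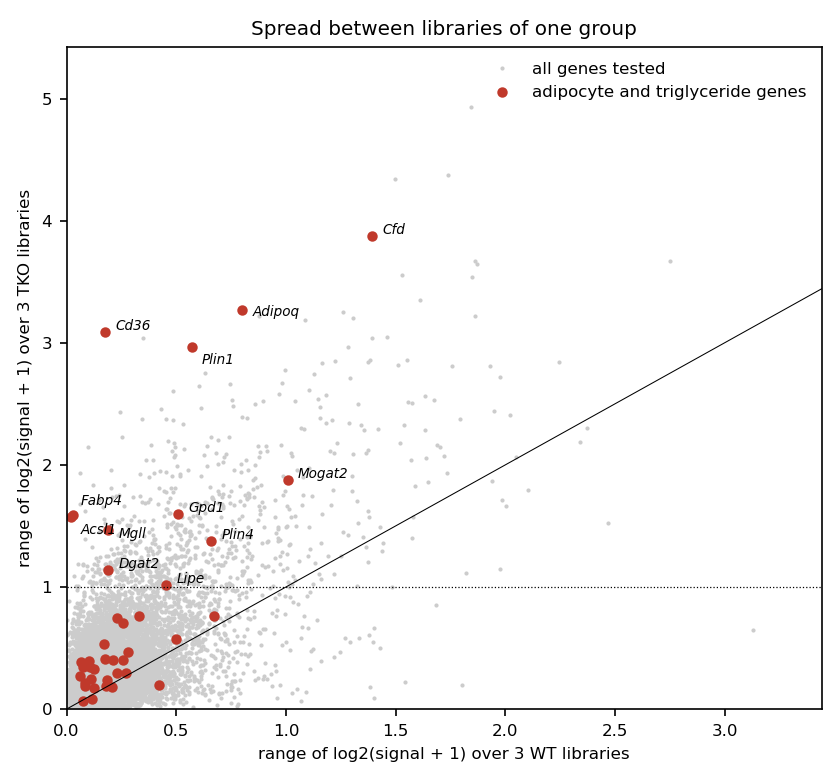
Range of log2(signal + 1) over the 3 WT libraries (x axis) and over the 3 TKO libraries (y axis) for all 12649 tested genes (grey) and the 40 tested genes of the set (red). The dotted line marks a TKO range of 1 and the solid line equal ranges; 12 red points lie above the dotted line, led by Cfd at 3.87.

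Markers of other cells differed between the same libraries, on other lines. The summed signal of 15 macrophage markers, 14 of them listed and Cd163 not, was 54.38, 42.44 and 75.43 in WT against 62.75, 327.42 and 57.45 in TKO, and none of the 12 tested markers passed. TKO 2, the library highest in macrophage signal, was the highest TKO library in 20 of the 40 tested lipid genes, Cd36, Cfd, Plin4 and Mogat2 among them. TKO 1 was the highest in 14 and TKO 3 in 6. The same shares over all tested genes are not given here, so these counts cannot be read as particular to the set. TKO 1, with a macrophage sum within the WT range, was about as high as TKO 2 in Adipoq, Plin1 and Fabp4. The summed signal of 5 listed epithelial markers was 34.44, 39.68 and 8.97 in WT against 0.482, 18.87 and 87.62 in TKO, highest in the TKO library whose fat cell hallmarks were lowest, and Krt5 was not listed. Krt8 and Krt18, keratins of that list, were among the 10 genes with the widest TKO range, with TKO 3 highest at 31.03 and 23.40. The 14 progenitor and fibroblast markers summed to 21105.01 to 22359.88 in WT and 27295.14 to 28203.46 in TKO, sums made up mostly of the collagens Col1a1 and Col3a1. Marker by marker 7 were above 0 and 7 below: Col3a1 (0.79) and Icam1 (1.11) rose, Pdgfrb (-0.47) and Thy1 (-0.86) fell and 10 did not pass. The 9 endothelial markers summed to 120.71 to 149.20 in WT and 88.31 to 164.83 in TKO, and of 8 tested Egfl7 rose and Flt1 fell. Schwann markers summed to 16.26 to 21.15 and 15.87 to 18.90, and mesothelial markers to 21.75 to 28.38 and 15.86 to 29.77. The part of these cells in the values of the lipid genes was not tested. In such bulk samples fewer cells of a type and less RNA per cell cannot be told apart.

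Among 60 further genes of lipid metabolism and adipocyte function, 49 were tested, 13 rose and 8 fell, beside 23.2% and 22.7% of all tested genes, and the median difference was 0.21. With library-size scaling 23 rose, beside 30.2% of all genes, and 5 fell. The smallest p-values belonged to a fall of Fabp3, another fatty acid binding protein, from 25.47, 25.45 and 21.54 to 7.94, 8.42 and 9.66 (-1.38 ± 0.10, adjusted p = 0.00031). Fads2, a desaturase of polyunsaturated fatty acids, fell by 1.15 ± 0.10 and Elovl1, an elongase of very long chains, by 0.35 ± 0.05. Mdh1, the cytosolic malate dehydrogenase, rose by 0.76 ± 0.08, the droplet protein Hilpda by 1.05 ± 0.13 and the droplet budding protein Fitm2 by 0.68 ± 0.10. TKO 3 lay with TKO 1 and TKO 2 in these 6 genes, outside the WT range. The 6 were picked by smallest p, which favours close TKO libraries clear of WT. Their likeness was thus built into the choice and is no contrast to the hallmarks.

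The regulators of the fat cell programme were unequal. Cebpa read 13.15, 10.90 and 11.80 in WT against 61.25, 35.95 and 26.51 in TKO and rose by 1.63 ± 0.28 (adjusted p = 0.0042), in TKO 3 as well. Pparg read 17.12, 14.03 and 14.77 in WT against 16.84, 16.25 and 10.55 in TKO (-0.09 ± 0.18, adjusted p = 0.71). Car3, the fat cell carbonic anhydrase, was among the 10 genes with the widest TKO range at a mean signal of at least 5, and read 17.28, 21.40 and 1.46 in TKO against 2.37 to 6.16 in WT, in the order of Adipoq. The others of these 10 were Krt8, Saa3, Krt18, Cfd, S100g, Krt7, Adipoq, Myh3 and Myl1.

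In the transgene comparison no gene of the set passed in the unpaired fit. None of the 36 tested genes did, and 0% of all 12634 tested genes, with limma, and edgeR also called 0. An unadjusted p under 0.05 was reached by 1 of the 36 genes, Acsl3, beside 5.92% of all genes, and DESeq2 called Acsl3 alone (adjusted p = 0.0023). CTL and Dox libraries of the same number deviated together, and with the number as a block 2.1% of all genes passed, 0.562% higher and 1.54% lower. A pair below means a CTL and a Dox library of the same number, which the labels do not say share an animal or culture. Of the 36 it was 1 gene, again Acsl3, on the lower side. The median difference was -0.04 in the set, and 14 of 36 differences were above 0, beside 52.8% of all genes.

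Acsl3 read 64.84, 69.42 and 67.82 in CTL and 43.53, 45.22 and 52.24 in Dox, with no overlap between the groups. The ratio of Dox to CTL was 0.671, 0.651 and 0.770 in the 3 pairs. The difference was -0.51 ± 0.09 (adjusted p = 0.43) without the block and -0.51 ± 0.08 with it (adjusted p = 0.022). Over all alternatives it ran from -0.59 to -0.46 with adjusted p from 1.6e-05 to 1.0, and the call of the paired fit was lost without pair 1 (adjusted p = 0.096). Acsl3 was thus lower in TKO than in WT and lower in Dox than in CTL. It was the sole gene of the set called in both comparisons, with the block in the second. Over all tested genes 45.8% passed in the first and 2.1% in the second with the block. The share of all genes called in both is not given here. Its relative Acsl4 was lower in all 3 pairs as well, at 139.52, 124.03 and 140.54 in CTL and 129.08, 98.92 and 110.24 in Dox (-0.26, adjusted p = 0.12 with the block).

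**Figure D5:**
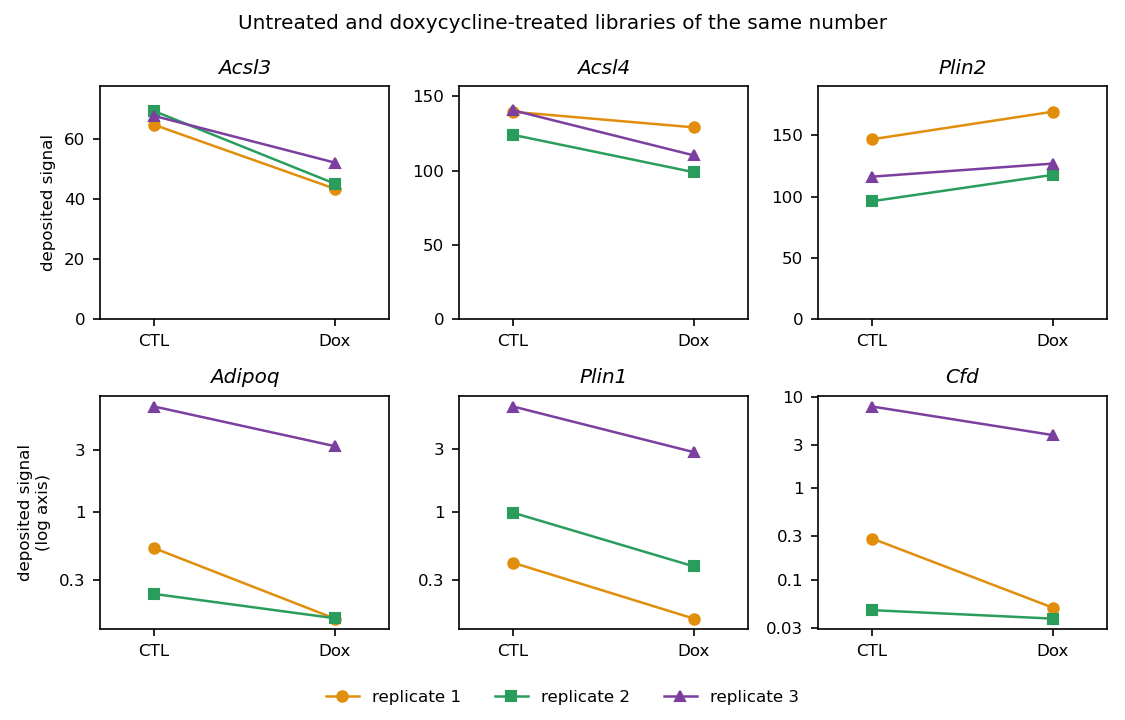
Deposited signal of 6 genes in CTL and Dox, with a line joining libraries of the same replicate number (upper row, linear axes from 0; lower row, log axes). All lines fall for Acsl3, Acsl4 and Plin1 and rise for Plin2, those of replicate 2 in Adipoq and Cfd rest on 1 to 5 reads, and in the lower row replicate 3 lies above replicates 1 and 2 in both groups.

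The genes that rose in TKO had no common direction under doxycycline. Dgat1 read 16.86, 17.75 and 20 in CTL and 17.21, 20.71 and 17.35 in Dox (0.02 ± 0.12), and Dgat2 5.79, 5.79 and 7.5 and then 7.30, 6.80 and 5.47 (0.03 ± 0.16). The groups overlapped in both. Lpin3 read 20.59, 17.14 and 12.88 in CTL and 15.55, 19 and 13 in Dox (-0.08 ± 0.20), with pairs moving either way.

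In the uptake genes Cav2 read 15.80, 14.81 and 21.03 in CTL and 16.71, 13.34 and 17.99 in Dox (-0.09 ± 0.17). Fabp5 read 59.73, 50.36 and 51.55 and then 53.80, 57.54 and 46.97 (-0.03 ± 0.11). Neither gene moved 1 way in all pairs. Slc27a4 did, from 45.34, 46.62 and 51.50 to 46.30, 56.17 and 53.93 (0.12 ± 0.08 with the block, adjusted p = 0.50). Bscl2 read 43.93, 38.07 and 50.27 in CTL and 43.38, 46.86 and 44.47 in Dox (0.03 ± 0.11). Acacb read 2.92, 3.97 and 2.64 and then 3.27, 4.26 and 2.58 (0.06 ± 0.20), lower in the third pair only.

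Plin2 was higher in all 3 pairs, at 146.85, 96.33 and 116.35 in CTL and 169.34, 117.81 and 127.02 in Dox, a difference of 0.21 ± 0.07 with the block that did not pass (adjusted p = 0.19). It passed in the paired fit after removal of the length and GC trend (adjusted p = 0.037). Among the 36 genes tested in both comparisons, 14 were above 0 in TKO against WT and below 0 in Dox against CTL, 12 were above 0 in both, 8 below 0 in both and 2 below and then above. How all tested genes split by sign is not given here, so these counts cannot be read as particular to the set.

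The fat cell hallmarks in the transgene cells differed by replicate number more than by treatment. Adipoq read 0.527, 0.234 and 6.51 in CTL and 0.151, 0.152 and 3.22 in Dox, from 13, 5 and 138 and from 3, 4 and 80 reads. Plin1 read 0.405, 0.981 and 6.41 in CTL and 0.151, 0.380 and 2.86 in Dox. Cfd read 0.284, 0.047 and 7.83 and then 0.050, 0.038 and 3.82, with a single read in CTL 2, Dox 1 and Dox 2. Replicate 3 was high in both groups. The Dox library was lower in pairs 1 and 3 of all 3 genes and in pair 2 of Plin1, while pair 2 of Cfd (1 read in each library) and of Adipoq (5 and 4 reads) gives no direction. These genes did not reach the level for testing. In paired fits without that filter Plin1 passed with edgeR (-1.24, adjusted p = 0.049) and did not with limma (-0.58, adjusted p = 0.10), while Adipoq (adjusted p 0.10 and 0.21) passed with neither.

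Libraries at least 1 apart on the log2 scale were found in 2 tested genes of the set in CTL (Cd36 and Plin4; 5.91% of all genes) and in 3 in Dox (Cd36, Plin4 and Elovl6; 7.09%). Cd36 was lowest in replicate 3, where the hallmarks were highest. Its libraries stood in the opposite order to those of Plin1, at 28.77, 14.02 and 5.33 in CTL and 32.41, 12.43 and 5.03 in Dox (-0.02 ± 0.11 with the block). The summed macrophage markers stood in the same order, at 185.11, 85.82 and 42.92 in CTL and 162.70, 87.18 and 33.33 in Dox, as did the endothelial markers, at 147.58, 107.45 and 95.92 and then 184.09, 126.20 and 106.09, and the epithelial markers, at 178.34, 37.00 and 5.42 and then 191.73, 46.93 and 17.18. That order was not particular to these lists. Progenitor and fibroblast sums also fell with replicate number, from 38438.06 to 25731.3 (CTL) and from 40765.72 to 26412.42 (Dox). These sums, too, were made up mostly of Col1a1 and Col3a1, which both fell in that order. Mesothelial and brown fat cell sums fell likewise, whereas Schwann sums did not (CTL 18.28, 17.66, 18.3). Single endothelial markers such as Tek (CTL 20.3, 23.36, 21.6) and Flt1 (CTL 29.09, 20.41, 27.31) departed from the falling order. Single progenitor markers were mixed: Dpp4 fell (CTL 39.06, 16.54, 4.48), Ly6a rose (CTL 75.9, 117.68, 245.28) and Pdgfra was highest in replicate 2 (CTL 713.32, 1081.78, 611.16). Whether any of these cell types had a part in the signal of Cd36 was not tested. Plin4 read 10.01, 16.30 and 25.94 in CTL and 8.86, 15.85 and 20.89 in Dox, in the order of Plin1, and Fabp4 35.94, 37.19 and 39.10 and then 32.36, 39.64 and 27.37 (-0.19 ± 0.11 with the block, adjusted p = 0.44).

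Several genes of the set were slightly lower with doxycycline in every pair. Of the 36 tested genes, 12 were lower in Dox in all 3 pairs, beside 18.2% of all tested genes, and 5 were higher in all 3, beside 21.4%. The lower ones included Lipe (ratios 0.838, 0.864 and 0.652), Abhd5 (0.848, 0.795 and 0.927), Me1 (0.900, 0.895 and 0.802), Agpat3 (0.857, 0.973 and 0.796) and Plin3 (0.897, 0.965 and 0.805). None of these 5 passed in the paired fit, where Lipe had an adjusted p of 0.22, Abhd5 of 0.20 and Me1 of 0.21. The values behind them were, for Lipe, 6.61, 8.27 and 9.57 in CTL and 5.54, 7.14 and 6.24 in Dox. Me1 read 58.23, 72.32 and 91.59 in CTL and 52.39, 64.72 and 73.41 in Dox. Abhd5 read 54.99, 51.11 and 59.33 in CTL and 46.65, 40.62 and 54.98 in Dox. CTL and Dox overlapped in all 3 of these genes.

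Mogat2 was also lower in every pair, at 2.31, 3.60 and 4.39 in CTL and 2.27, 3.00 and 2.78 in Dox (-0.24 ± 0.14 with the block, adjusted p = 0.41). Lpin1, with an 8-base seed match, read 35.82, 48.49 and 59.33 in CTL and 31.35, 45.95 and 51.20 in Dox (-0.16 ± 0.08 with the block, adjusted p = 0.35). Elovl6 read 66.82, 107.64 and 127.71 and then 56.36, 87.10 and 121.03 (-0.21 ± 0.08 with the block, adjusted p = 0.21). In both genes the 3 pairs differed from each other by more than CTL and Dox did. The count of lower genes in the paired fit depended on the pairs kept: 6 without pair 2 (Acsl3, Acsl4, Agpat3, Cav1, Fabp4 and Plin3), 1 without pair 3 and none without pair 1. With all pairs 1.54% of all genes were lower. The shares without a pair are not given here, so these counts cannot be read as particular to the set.

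Most of the remaining genes of the set varied little with treatment. Fasn, Acly, Acaca, Scd1 and Scd2 differed by -0.08 to 0.07, and in Fasn and Acly replicate 3 was the highest library in both groups, at 624.13 and 603.40 for Fasn. Elovl5 read 172.06, 172.62 and 165.68 in CTL and 182.17, 164.44 and 187.48 in Dox (0.06 ± 0.08). Mgll read 8.87, 7.85 and 13.87 and then 11.02, 8.93 and 10.95 (0.05 ± 0.21), and Pnpla2 differed by -0.03, Gpam by 0.10 and Agpat2 by -0.02. None of these genes moved 1 way in every pair, except Gpam. Acsl1 did, from 16.05, 15.7 and 20 to 18.27, 16.76 and 21.61 (0.12 ± 0.09 with the block, adjusted p = 0.54). Gpd1 followed the replicate number, at 0.608, 0.420 and 2.08 in CTL and 0.554, 0.418 and 2.13 in Dox. Cav1 was lower in all 3 pairs (ratios 0.795, 0.931 and 0.839, adjusted p = 0.16 with the block). Lpin2 was higher in all 3 (1.04, 1.1 and 1.25, adjusted p = 0.39 with the block), with no overlap between CTL and Dox. Of the untested genes, Slc2a4 was lower in every pair (0.745, 0.705 and 0.697) and Aqp7 higher (1.09, 3.09 and 1.12), from 5 to 25 reads per library. Of the 49 tested genes among the 60 further lipid genes, none passed in the unpaired fit (5 at an unadjusted p under 0.05, none by edgeR, 1 higher and 1 lower by DESeq2), and 1 rose and 3 fell with the block. In the table deposited by the authors (the authors' deposited table), 13 genes of the set had a false discovery rate under 0.05 in TKO against WT (10 higher and 3 lower), where 24.8% of all listed genes had, and none had in Dox against CTL. These were not the same genes as those passing here. The authors' edgeR test included Fabp4 (false discovery rate 0.027), Retn (0.02) and Agpat2 (0.05 after rounding) as higher. It did not include Plin2 (0.096), Acacb (0.058) or Elovl5 (0.11).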

How the data were processed

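The labels' processing notes name TopHat2 2.0.12, featureCounts 1.4.6, edgeR 3.8.6 and StringTie 1.2.2, with the genome builds GRCm38 and mm10; the strand setting of the counting is not given in the sources used here. The signal deposited by the authors is read counts scaled by 1 factor per library, and 99.9% to 100% of values per library were whole reads within 0.1. Deposited log2 columns (fold changes and mean levels), like each deposited p-value and false discovery rate, came from the authors' own test, and the deposited score, a likelihood ratio, was not used. The planned count test gave way to limma 3.58.1 on the log2 of signal plus 1 because the files hold scaled values; edgeR 4.0.16 and DESeq2 1.42.0 (R 4.3.3) on the recovered reads were alternatives. Each comparison was fitted on its own 6 libraries, since the tables were normalized apart, with a threshold of 0.05. Columns were matched to samples by group and replicate number, and 0 were left over.

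Same-numbered CTL and Dox libraries correlated in their deviations from the group means over all tested genes at 0.863, 0.584 and 0.736. The block rests on the shared number and on these correlations, which come from the same data. They cannot show that same-numbered libraries share an animal or a culture, and the labels do not say so. The columns of Dox replicates 2 and 3 carry the same sequencing suffix, so that their identity rests on the replicate number. The 48 genes, the lists and the tests were chosen with earlier results of these data known. Values in every library are given for Adipoq, Fabp4, Plin1 and Dgat1, for genes past the threshold in either comparison with or without the block, and for genes with TKO libraries at least 1 apart on the log2 scale; other values of single genes were chosen after they were seen. Further genes named are the 6 lipid genes with the smallest p past the threshold, Pparg, Cebpa and the 10 widest TKO ranges at a mean signal of at least 5. Transcript lengths, 3′ UTRs and shared 50-base stretches come from 1 transcript per gene of GENCODE M21, which held 99.8% and 99.9% of the gene identifiers. The fits were tested on simulated data. Alternatives were another pseudocount (0.25 or 5), no filter, other scalings, other tests, library weights, removal of the length and GC trend, the replicate block and leaving out each library. Intervals for counting error are not given, since PCR copies are not independent molecules. Python 3.11.15 with pandas 2.3.3 and matplotlib 3.10.9 was also used.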

Additional observations from a re-analysis of the deposited data

How the results depend on the processing

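In TKO against WT the set gave 9 higher and 4 lower genes, and the alternatives gave 9 to 12 higher except for library-size scaling (16), DESeq2 (16) and removal of the length and GC trend (14). Lower genes numbered 3 to 5, except for the replicate block together with removal of that trend (2). Leaving out single libraries gave 6 to 20 higher and 2 to 4 lower, with 20 without TKO replicate 3 and 2 without WT replicate 1, and the further lipid genes gave 23 and 5 with library-size scaling in place of 13 and 8. Same-numbered WT and TKO libraries correlated at 0.449, -0.135 and -0.293, which cannot show whether they share more than a number. The replicate block gave 11 higher and 4 lower by adding Me1 (adjusted p = 0.039) and Mogat2 (adjusted p = 0.037). Library 1 of each group correlated best with its own number, libraries 2 and 3 did not. Leaving out single libraries moved Acsl1 between -0.09 and 0.70 and Mgll between -0.30 and 0.44, negative only without TKO replicate 1. With a pseudocount of 5, 0 genes had WT libraries at least 1 apart. In Dox against CTL the unpaired alternatives called 0 genes of the set apart from DESeq2 (1 lower). The replicate block gave 1 lower, with no filter 1, with edgeR 1, with edgeR and no filter 2, with the trend removed 1 higher and 1 lower, and without pairs 1, 2 or 3 it gave 0, 6 or 1 lower. For the further lipid genes, higher and lower, DESeq2 gave 1 and 1, the block 1 and 3, with the trend removed 2 and 7, with no filter 1 and 1, with edgeR 1 and 2, with edgeR and no filter 1 and 2, and without pair 1, 2 or 3 it gave 1 and 1, 2 and 8, or 2 and 4. Apart from the plain block, the shares of all genes passing in these paired alternatives are not given here, so their counts have no background. Leaving out single libraries moved Cav1 between -0.43 and 0.02, Elovl6 between -0.47 and 0.08 and Dgat1 between -0.07 and 0.08. Dgat1 was also below 0 with library weights (-0.01) and in the block without pair 2 (-0.08). The paired fits without filter, with edgeR or without a pair were chosen after the data were seen, and the causes of these shifts were not tested. Depth limits the hallmarks in CTL and Dox, where Adipoq had 3 to 138 reads.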
